A study of Mus musculus with 4 samples.

Results

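The 10 genes described here are Psmb8, Psmb9, Psmb10, Psme1, Psme2, Tap1, Tap2, Tapbp, Nlrc5 and Erap1, which encode subunits of the immunoproteasome and the machinery that loads its peptides onto MHC class I. They were taken by symbol from the 31053 genes of the deposited feature lists, and each symbol matched 1 row. Their counts were read in droplet libraries of single cells from mouse intestinal crypts, 7 days after bone marrow transplantation into female C57BL/6 recipients of 8 to 12 weeks that had been lethally irradiated. Allogeneic recipients, which the labels call mice with graft-versus-host disease, were given BALB/c marrow. This marrow differs from the host at the major histocompatibility locus. Syngeneic recipients were given C57BL/6 marrow, and the labels call them control mice. Each group had 2 libraries, and each library came from crypts of 3 to 4 mice pooled together, so every value below rests on 2 pools per group and animals within a pool cannot be told apart. The prefix KO in all 4 library names is left without explanation by the labels. Radiation was common to both groups, and no unirradiated mice are among the libraries analysed here.

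The proteasome cuts proteins into peptides in a barrel-shaped 20S core. Under interferon gamma its constitutive catalytic subunits Psmb5, Psmb6 and Psmb7 are replaced in newly built cores by Psmb8, Psmb9 and Psmb10, and a ring of Psme1 and Psme2 (PA28 alpha and beta) can cap the core. The peptides are pumped into the endoplasmic reticulum by the Tap1 and Tap2 transporter, trimmed by the aminopeptidase Erap1, and fitted into class I molecules with the help of tapasin, encoded by Tapbp. Nlrc5 is a transactivator of the class I heavy chain genes, B2m, Tap1 and Psmb9. In graft-versus-host disease, donor T cells recognise host tissue through MHC, and the intestinal crypt is one of the tissues they injure.

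The genes are clustered in the genome. In GENCODE M21 (GRCm38), Psmb9 (chr17:34181987-34187764, minus strand), Tap1 (chr17:34187553-34197225), Psmb8 (chr17:34197721-34201454) and Tap2 (chr17:34203527-34216321) lie side by side within 34.3 kb of the MHC region. Tapbp lies on the same chromosome (chr17:33915899-33929292). Psme1 (chr14:55578123-55581529) and Psme2 (chr14:55587441-55591113, minus strand) are neighbours, while Psmb10 (chr8:105935735-105938444, minus strand), Nlrc5 (chr8:94434356-94527272) and Erap1 (chr13:74639568-74693201) stand apart. The RefSeq start sites (GRCm38.p6) of Tap1 and Psmb9 are 226 bases apart and face away from each other. Their RefSeq promoter windows (250 bases before to 50 after the start) therefore share 275 bases. In GENCODE these genes overlap by 212 bases. The windows were searched on both strands for the interferon-stimulated response element as GAAANNGAAA, for the gamma-activated site as TTCNNNGAA and for the GC box as GGGCGG. A window was given for 8 of the 10 genes. The windows follow the RefSeq start, and those of Psmb8, Psmb9, Psme1, Tapbp and Erap1 lie wholly inside the genes as GENCODE places them. The 4 shown here are those the results turn on: Tap1, whose window is shared with Psmb9, Psmb8 with the gamma-activated site pattern, and Psme1 and Erap1 with the response element pattern. Each is written 5′ to 3′ along its gene's strand, with matches to the first 2 patterns, on either strand, in capitals; the Tap1 window holds neither, and GC boxes are left in lower case.
Tap1, chr17:34187306-34187605, plus strand: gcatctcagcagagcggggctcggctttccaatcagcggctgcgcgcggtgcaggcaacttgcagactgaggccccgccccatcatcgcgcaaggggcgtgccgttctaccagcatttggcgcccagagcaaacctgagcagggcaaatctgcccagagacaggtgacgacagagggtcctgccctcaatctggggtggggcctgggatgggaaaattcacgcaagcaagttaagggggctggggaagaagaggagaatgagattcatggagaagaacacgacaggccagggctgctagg
Psmb8, chr17:34197945-34198244, plus strand: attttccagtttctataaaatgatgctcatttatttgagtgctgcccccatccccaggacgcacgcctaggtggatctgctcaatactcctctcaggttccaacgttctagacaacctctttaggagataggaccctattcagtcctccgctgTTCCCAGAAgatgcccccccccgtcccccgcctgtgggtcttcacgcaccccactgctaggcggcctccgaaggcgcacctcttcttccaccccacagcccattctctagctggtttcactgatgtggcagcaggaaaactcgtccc
Psme1, chr14:55578244-55578543, plus strand: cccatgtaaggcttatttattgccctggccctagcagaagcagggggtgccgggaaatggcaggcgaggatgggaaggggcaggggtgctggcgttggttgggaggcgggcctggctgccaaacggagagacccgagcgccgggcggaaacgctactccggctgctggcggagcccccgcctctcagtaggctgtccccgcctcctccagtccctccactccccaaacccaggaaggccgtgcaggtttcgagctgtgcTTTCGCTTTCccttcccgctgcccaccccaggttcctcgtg
Erap1, chr13:74639603-74639902, plus strand: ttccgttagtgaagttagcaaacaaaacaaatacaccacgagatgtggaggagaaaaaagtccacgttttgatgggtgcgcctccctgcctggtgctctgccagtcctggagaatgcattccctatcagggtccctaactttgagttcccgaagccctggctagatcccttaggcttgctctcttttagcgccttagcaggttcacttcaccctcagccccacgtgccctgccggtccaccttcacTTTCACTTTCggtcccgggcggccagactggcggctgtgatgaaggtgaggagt
The gamma-activated site pattern began 97 bases before the RefSeq start of Psmb8 (chr17:34198195), inside the gene as GENCODE places it. It was in 1 of the 8 genes, and 8.3% of all 32851 windows held it. The response element pattern began at base 9 after the RefSeq start of Psme1 and 4 bases before that of Erap1. It was in 2 of the 8 genes, against 3.44% of all windows. The GC box was in windows of 6 of the 8 genes and in 35.66% of all windows. The matches of Tap1 and Psmb9 are the same bases of their shared window, counted for each of these genes. These are matches of letters only.

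After filters on damaged and doublet barcodes, 12196 of 16565 barcodes were kept, with a median of 3946 to 5182 UMIs (unique molecular identifiers, each counting 1 captured RNA molecule) per cell and library. The allogeneic 1 library had 27.19% of its barcodes above the limit on mitochondrial counts, against 11.18% to 14.89% in the other libraries. Of the kept cells, 11649 passed as epithelial on listed marker genes, and 423 as T or NK lymphocytes, of which 212 and 175 were in the allogeneic and 8 and 28 in the syngeneic libraries. No library pair shared more than 7 cell barcodes. Across genes with more than 10 counts in each library, the log2 difference between libraries of a group had an SD of 0.735 in the allogeneic pair and 0.269 in the syngeneic pair, so the allogeneic pools resembled each other less. Summed T or NK markers in the epithelial sums were 6.75 and 5.62 CPM (UMI counts scaled to a common library total) in the allogeneic and 3.03 and 1.57 CPM in the syngeneic libraries over 12 markers, of which 0, 1, 5 and 5 were at 0. Without the cells that held a UMI of these markers, the log2 fold change of Tap1 in the epithelium was 1.60, as with them.

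Over the whole crypt epithelium, 9 of the 10 genes had a higher level in both allogeneic libraries than in both syngeneic ones, a pattern that 20.6% of the 12021 genes tested shared. Their median log2 fold change was 1.07, against 0.03 over all genes tested. None of the 10 passed an adjusted p of 0.05 in edgeR's quasi-likelihood test with Benjamini-Hochberg adjustment over all genes, where 0.133% of genes were called higher. At an unadjusted p below 0.05 there were 7, where 9.88% of all genes were, and DESeq2 called 3 (Psmb8, Psmb9 and Tap1), where it called 2.8% of all genes in either direction. Values below are CPM after TMM scaling of the UMIs summed over epithelial cells, and log2 fold changes are allogeneic over syngeneic with their standard error (SE).

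Among the catalytic subunits, Psmb8, which replaces the chymotrypsin-like site, had 619.5 and 1031 CPM in the allogeneic libraries, against 382.5 and 356.8 CPM in the syngeneic ones. Psmb9, which replaces the caspase-like site, had 266.4 and 524.6 CPM in the allogeneic libraries, against 169 and 166.2 CPM in the syngeneic ones. Both genes were lowest in the syngeneic pools, and allogeneic 2 was above allogeneic 1. The log2 fold changes were 1.16 (SE 0.37, edgeR adjusted p = 0.364) for Psmb8 and 1.24 (SE 0.41, edgeR adjusted p = 0.381) for Psmb9. Psmb10, which replaces the trypsin-like site, had 282.7 and 528.4 CPM in the allogeneic libraries, against 255 and 278.3 CPM in the syngeneic ones. Allogeneic 1 lay just above syngeneic 2, and only allogeneic 2 stood clear of the syngeneic pools (log2 fold change 0.60, SE 0.39, edgeR adjusted p = 0.728).

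The PA28 activator genes gave the same order of libraries. Psme1 had 634.7 and 939.1 CPM in the allogeneic libraries, against 397.2 and 369 CPM in the syngeneic ones, a log2 fold change of 1.04 (SE 0.34, edgeR adjusted p = 0.378). Psme2 had 548 and 1034 CPM in the allogeneic libraries, against 506.4 and 497.7 CPM in the syngeneic ones, a log2 fold change of 0.66 (SE 0.40, edgeR adjusted p = 0.699). The Psme2 groups did not overlap, but allogeneic 1 was far nearer to the syngeneic pools than to allogeneic 2. Psme2 has a close copy on another chromosome, Psme2b, with 55 and 133 counts in the allogeneic and 26 and 24 in the syngeneic libraries, beside 8371 and 21395, and 8676 and 6606, for Psme2 itself.

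The peptide transporter subunits parted from each other. Tap1 had 187.8 and 183.4 CPM in the allogeneic libraries, against 63.3 and 59.4 CPM in the syngeneic ones, which is the largest log2 fold change of the 10 (1.60, SE 0.24, edgeR adjusted p = 0.118). The allogeneic pools were as close to each other as the syngeneic pools were, and the groups lay far apart. The adjusted p of Tap1 was below 0.05 with DESeq2 (5.84e-05), without the filter on low counts (0.000479) and with the cell classes at equal weight (0.0375). Tap2, the other chain of the transporter, had 22.1 and 49.2 CPM in the allogeneic libraries, against 17.6 and 15.6 CPM in the syngeneic ones (log2 fold change 1.10, SE 0.39, edgeR adjusted p = 0.409). Tap2 thus stood with Psmb8 and Psmb9 in having its high value in allogeneic 2.

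Tapbp, the tapasin gene, had 144.2 and 161 CPM in the allogeneic libraries, against 83.5 and 89.5 CPM in the syngeneic ones (log2 fold change 0.82, SE 0.24, edgeR adjusted p = 0.329). Nlrc5 was detected at low levels, 16.6 and 11.4 CPM in the allogeneic and 5.89 and 5.88 CPM in the syngeneic libraries (log2 fold change 1.25, SE 0.28, edgeR adjusted p = 0.209). In both genes the allogeneic pools were above the syngeneic ones without allogeneic 2 standing out. Erap1, the trimming peptidase, had 69.7 and 53.2 CPM in the allogeneic libraries, against 55.4 and 49.4 CPM in the syngeneic ones (log2 fold change 0.23, SE 0.23, edgeR adjusted p = 0.818). It was the single gene of the 10 whose groups overlapped. Tapbp shares 3422 bases with Zbtb22 on the same strand, and several of the genes overlap transcripts of the opposite strand, among them Psmb10 over its full length; whether counting used the strand is not given in the sources used here.

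**Figure D1:**
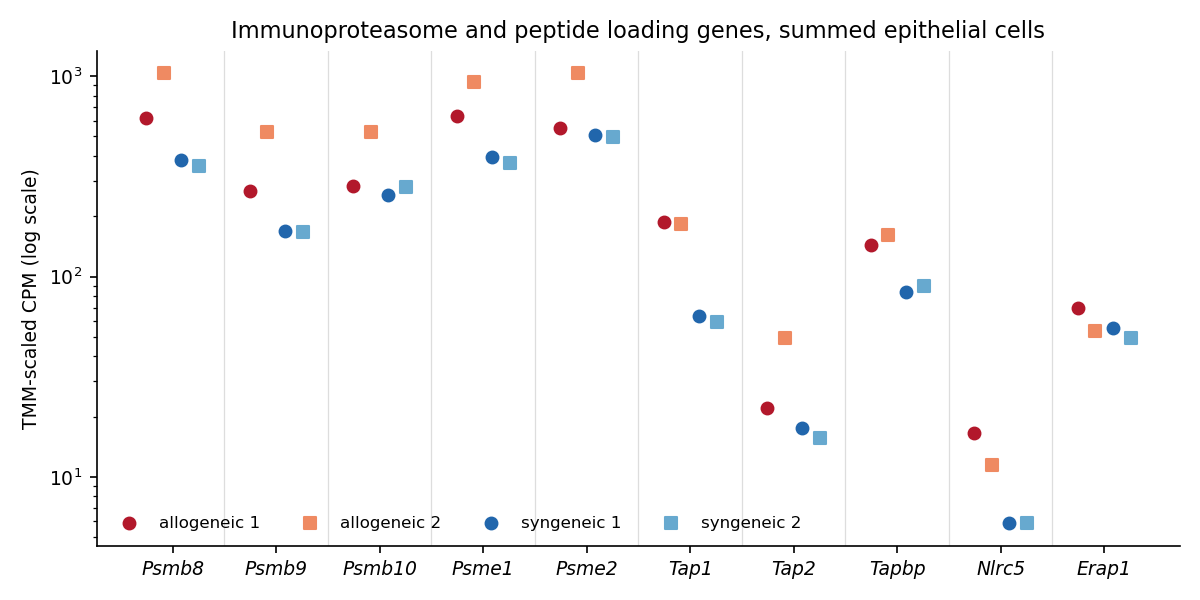
TMM-scaled CPM (log axis) of each gene in the summed epithelial cells of each library, 1 point per library, allogeneic 1 and 2 to the left of syngeneic 1 and 2. Tap1 shows 2 close allogeneic points near 185 CPM above 2 close syngeneic points near 61 CPM, while Psmb10 and Psme2 show a single high point, allogeneic 2, and the groups of Erap1 overlap.

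The 10 genes differed in how the 2 allogeneic pools compared. Relative to the syngeneic mean, allogeneic 1 held 3.06 times the Tap1 and 2.83 times the Nlrc5 level, but 1.06 times the Psmb10 and 1.09 times the Psme2 level. In allogeneic 2 the ratios were 2.99 for Tap1 and 1.95 for Nlrc5, and 1.98 for Psmb10 and 2.06 for Psme2. Tap1 and Psmb9, whose promoter windows overlap, went apart in this respect: Psmb9 had 1.59 times the syngeneic level in allogeneic 1 and 3.13 times in allogeneic 2. The ratio of allogeneic 2 to allogeneic 1 was 1.48 to 2.23 in Psmb8, Psmb9, Psmb10, Psme1, Psme2 and Tap2, 1.12 in Tapbp, 0.98 in Tap1, 0.76 in Erap1 and 0.69 in Nlrc5, with a median of 0.97 over 11185 genes.

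The same split ran through the cell classes. Allogeneic 2 was above allogeneic 1 in all 7 classes for Psmb8, Psmb9, Psmb10, Psme1 and Psme2 and in all 5 classes with enough counts for Tap2. Over all genes the median ratio was between 0.97 and 1.04 in 4 classes, but 1.14 in stem-like, 1.14 in enteroendocrine-like and 1.18 in tuft-like cells, so that Psme1 (1.19) and Psme2 (1.12) in enteroendocrine-like cells lay at the level of all genes. For Tap1, Erap1 and Nlrc5 allogeneic 2 was above allogeneic 1 in 1 class each, of 7, 7 and 4 with enough counts, and for Tapbp in 3 of 7. These ratios depend on the scaling, because the TMM factors of the epithelial sums were 1.13 and 0.857 in the allogeneic and 1.04 and 0.992 in the syngeneic libraries. On CPM of the library total, without TMM, the ratio of allogeneic 2 to allogeneic 1 was 1.26 for Psmb8, 1.49 for Psmb9, 1.41 for Psmb10 and 1.12 for Psme1, but 0.74 for Tap1. On that scale the ratios of the catalytic and PA28 genes were above 1, and that of Tap1 was below 1. Leaving out TMM moves the ratio of every gene by the same factor, so the order of the genes stays as it was. The median over all genes was not taken on that scale, so these ratios do not tell which way a gene leans against all genes. There allogeneic 1 held 1.19 times the Psmb10 and 1.22 times the Psme2 level of the syngeneic mean. The median mitochondrial share of epithelial cells was 9.24% and 5.9% in the allogeneic and 7.6% and 7.46% in the syngeneic libraries. With a limit of 10% in place of 20%, and again on CPM of the library total, the ratio of allogeneic 2 to allogeneic 1 was 1.21 for Psmb8, 1.44 for Psmb10 and 0.75 for Tap1.

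**Figure D2:**
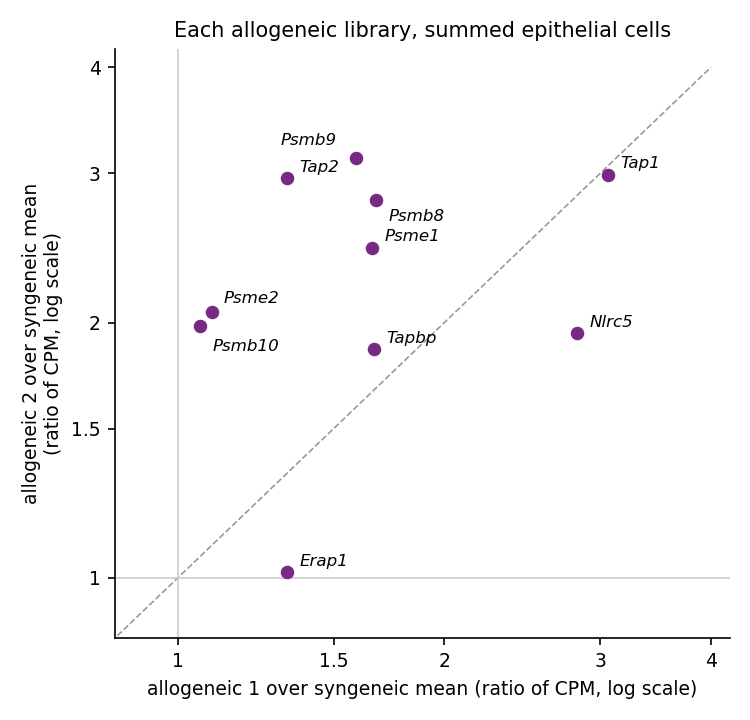
Ratio of TMM-scaled CPM in allogeneic 1 (x axis) and allogeneic 2 (y axis) to the syngeneic mean, 1 point per gene in summed epithelial cells, both axes logarithmic; the dashed line marks equal ratios and the grey lines a ratio of 1. Tap1 lies on the dashed line near 3, Nlrc5 and Erap1 lie below it, and the catalytic and PA28 genes and Tap2 lie above it, with Psmb10 and Psme2 close to a ratio of 1 in allogeneic 1.

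Within cell classes, named "-like" because they were gated on marker genes per cell, Tap1 was the gene that passed the test most often. In stem-like cells it had 234.2 and 178.9 CPM in the allogeneic libraries, against 57.1 and 43.8 CPM in the syngeneic ones (log2 fold change 2.03, SE 0.31, edgeR adjusted p = 0.0222). In cycling progenitor-like cells it had 205.7 and 183.1 CPM in the allogeneic libraries, against 76 and 57.9 CPM in the syngeneic ones (1.53, SE 0.26, edgeR adjusted p = 0.00258). Both classes thus held more Tap1 RNA in each allogeneic pool than in either syngeneic pool. The gate did not hold markers level: stem markers in stem-like sums were 5452 and 2799 CPM (without TMM), against 7071 and 6988 CPM. Cycling progenitor markers in their own class were 3517 and 3148 CPM, against 4022 and 3743 CPM. What this does to the fold changes was not tested. In Paneth-like cells, which make antimicrobial peptides, Tap1 had 107.4 and 114.2 CPM in the allogeneic libraries, against 21.6 and 26.4 CPM in the syngeneic ones (2.21, SE 0.29, edgeR adjusted p = 0.00462). In the mucus-making goblet-like cells it had 214.3 and 210.5 CPM in the allogeneic libraries, against 47 and 42.1 CPM in the syngeneic ones (2.25, SE 0.26, edgeR adjusted p = 0.0231). The summed T or NK markers in the Paneth-like sums were 5.7 and 24.6 CPM in the allogeneic and 3.79 and 1.2 CPM in the syngeneic libraries, and without cells that held such a UMI the Tap1 fold change there was 2.23. Paneth-like cells had the lowest Tap1 CPM of these classes in every library, in sums where 11 Paneth markers held 307200 to 428800 CPM (without TMM). Their fold change was of the same size as that of goblet-like cells. Tap1 rose in these 4 classes; in enterocyte-, enteroendocrine- and tuft-like cells its log2 fold changes were 0.84, 1.76 and 1.92 with edgeR adjusted p = 0.186, 0.122 and 0.0869.

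Tapbp rose in cycling progenitor-like cells, where it had 138.3 and 117.2 CPM in the allogeneic libraries, against 69.2 and 62.5 CPM in the syngeneic ones (log2 fold change 0.95, SE 0.24, edgeR adjusted p = 0.0402). That call lies at the threshold, with an adjusted p of 0.0521 in DESeq2 and 0.0507 with another scaling in edgeR. No other gene of the 10 was called in any class, and none was called lower. In the order stem-, cycling progenitor-, Paneth- and goblet-like, 1, 2, 1 and 1 of the 10 genes were called higher, where 0.417%, 1.85%, 0.95% and 0.343% of all genes were. In enterocyte-like cells 0 of 10 were called, where 1.13% of all genes were called higher. Of the 8 genes with enough counts to test in enteroendocrine- and tuft-like cells, 0 were called in each, where 0.985% and 0.236% of all genes were called higher. At an unadjusted p below 0.05 edgeR had 4, 5 and 3 genes in the enterocyte-, enteroendocrine- and tuft-like classes, where 15.4%, 6.22% and 8.18% of all genes were, and DESeq2 called 0 in each. Tap2 and Nlrc5 did not pass the filter on low counts in the last 2 classes.

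Direction was shared more widely than the calls. Each fold change that could be fitted was above 0, in every class, although those of Erap1 were as small as 0.02 (goblet-like) and some turned negative under other settings. The median log2 fold change of the genes tested was 1.09 in stem-like, 0.94 in cycling progenitor-like, 0.63 in enterocyte-like, 1.34 in Paneth-like, 1.36 in goblet-like, 0.85 in enteroendocrine-like and 0.61 in tuft-like cells, while the median over all genes tested was at most 0.05 from 0 in each class. Both allogeneic libraries were above both syngeneic ones in 9 of 10 genes in stem-like cells (18.9% of all genes tested), 8 of 10 in cycling progenitor-like (21.3%), 6 of 10 in enterocyte-like (22.6%), 10 of 10 in Paneth-like (18.8%) and 9 of 10 in goblet-like cells (18.5%). In enteroendocrine- and tuft-like cells this held for 8 and 5 of the 8 genes tested, against 18.2% and 19.7% of all genes. The largest single fold change was that of Nlrc5 in goblet-like cells, on 21 and 21 counts in the allogeneic and 9 and 3 counts in the syngeneic libraries (17.6 and 10.6 CPM, against 3.5 and 1.44 CPM). It was 2.39 (SE 0.54) with an edgeR adjusted p of 0.207, but 0.000371 without the filter on low counts and 0.0433 on classes taken from clusters. The calls rest on both groups: with syngeneic 1 or syngeneic 2 left out, none of the 10 genes kept or gained a call. The spread was then taken from the allogeneic pair, which is the wider of the pairs. Without allogeneic 1 or allogeneic 2 the spread is taken from the syngeneic pair and the lone allogeneic pool is assumed to vary alike, and calls spread over all genes. In goblet-like cells 9 and 8 of the 10 genes were then called, where 26.8% and 8.92% of all genes were.

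**Figure D3:**
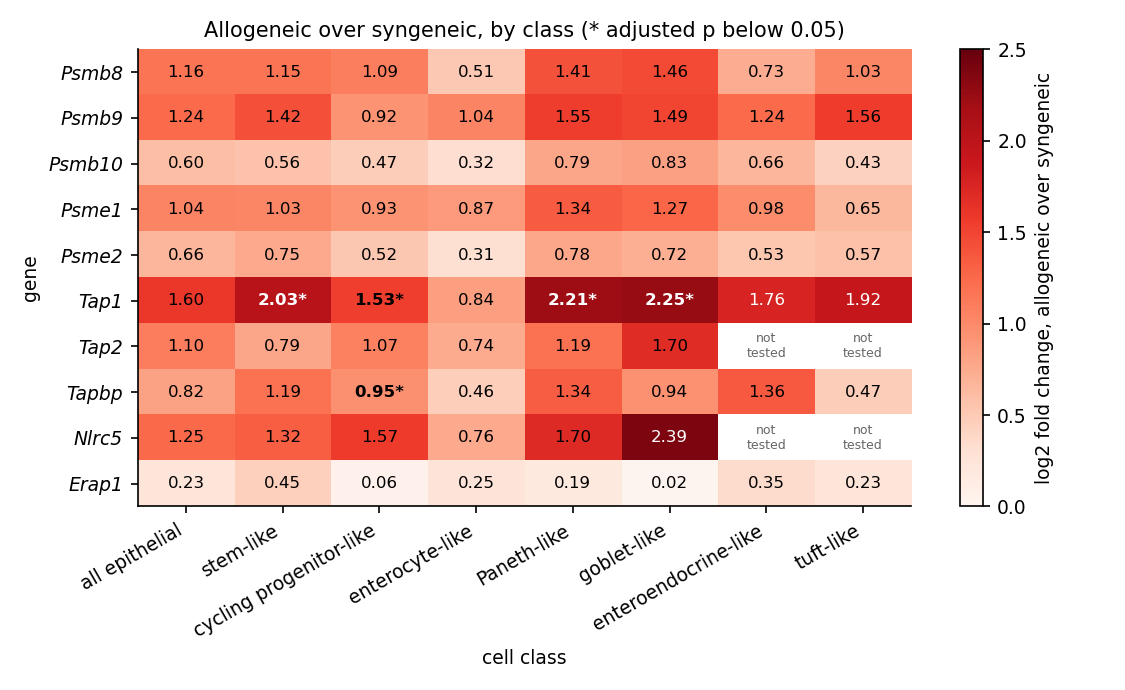
Log2 fold change, allogeneic over syngeneic, of each gene (rows) in all epithelial cells and in each cell class (columns), with 2 libraries per group; darker red is higher and an asterisk marks an edgeR adjusted p below 0.05. Tap1 carries 4 of the 5 marks, its palest class is enterocyte-like at 0.84, and the Erap1 row is near 0.

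Whether a class responded differently from the others was tested as the allogeneic effect in that class minus the mean effect of the other 6 classes, with library as a block. Enterocyte-like cells, the absorptive class, stood apart for Tap1. Their Tap1 level was 211.8 and 173.3 CPM in the allogeneic libraries, against 106.6 and 107.6 CPM in the syngeneic ones. The effect was smaller there by 1.05 on the log2 scale (difference -1.05, SE 0.19, edgeR adjusted p = 0.00012). The syngeneic level of Tap1 was higher in enterocyte-like cells than in each of the other 6 classes, while the allogeneic levels were in the same range. Psmb8 gave the other called difference: with 344.7 and 639.1 CPM in the allogeneic and 365.6 and 326.8 CPM in the syngeneic libraries, its effect in enterocyte-like cells was below that of the other classes (difference -0.59, SE 0.15, edgeR adjusted p = 0.0109). Allogeneic 1 there lay between the syngeneic pools.

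Among the other 8 genes the difference in enterocyte-like cells lay between -0.57 (Tap2) and 0.07 (Erap1), and Tapbp came nearest to the threshold (difference -0.52, SE 0.20, edgeR adjusted p = 0.135). In all, 9 of the 10 differences were negative, and 2 were called, where 4.77% of all 11412 genes were. In the other classes 0 of 10 were called in each. Of all genes, 0% were called for stem-like, 0.228% for cycling progenitor-like, 0.184% for Paneth-like, 0.158% for goblet-like, 0.00876% for enteroendocrine-like and 0% for tuft-like cells. At an unadjusted p below 0.05 in edgeR there were 0, 1, 3, 3, 0 and 1 of the 10 genes in that order. The share of all genes at that threshold was not taken, so these counts have no background to be read against. Enterocyte-like cells also had the highest median mitochondrial share of the classes (14.49% and 8.04% in the allogeneic and 10.71% and 10.43% in the syngeneic libraries). How this share relates to the effect over the classes was not tested. With a limit of 10%, an alternative chosen after these values were seen, the differences were -1.01 for Tap1 (edgeR adjusted p = 0.0098) and -0.69 for Psmb8 (edgeR adjusted p = 0.039). That limit left 35 and 1146 enterocyte-like cells in the allogeneic and 194 and 210 in the syngeneic libraries, so allogeneic 1 rests there on few cells. Without syngeneic 2 neither was called (-0.93, edgeR adjusted p = 0.0987, and -0.63, edgeR adjusted p = 0.279), and without syngeneic 1 Psmb8 was not called (-0.55, edgeR adjusted p = 0.357).

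The exchange of catalytic subunits was read as the share of the immunoproteasome member among the UMIs of each pair, which does not depend on the scaling of libraries. Such shares count RNA 3′ ends and not built proteasomes, and their exact 95% binomial intervals cover counting error only. Psmb8 made up 74.9% (74.1% to 75.7%) and 73.6% (73.1% to 74.1%) of Psmb8 plus Psmb5 in the allogeneic libraries, against 61.9% (61.0% to 62.8%) and 59.3% (58.2% to 60.4%) in the syngeneic ones. The allogeneic pools were alike in this share although they differed in the level of Psmb8. Psmb9 made up 51.6% (50.4% to 52.7%) and 56.1% (55.4% to 56.8%) of Psmb9 plus Psmb6 in the allogeneic libraries, against 36.3% (35.3% to 37.4%) and 36.7% (35.5% to 37.9%) in the syngeneic ones. For this site the immunoproteasome form was the larger part in the allogeneic pools and the smaller part in the syngeneic pools. The means were 74.2% ± 0.938 and 60.6% ± 1.85 for Psmb8 and 53.8% ± 3.22 and 36.5% ± 0.236 for Psmb9 (allogeneic and syngeneic, SD, n = 2 each). The exact two-sided permutation p was 0.333 for both, the smallest that 2 against 2 libraries allow.

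Psmb10 behaved otherwise. It made up 70.3% (69.2% to 71.5%) and 77.2% (76.5% to 77.9%) of Psmb10 plus Psmb7 in the allogeneic libraries, against 72.2% (71.1% to 73.4%) and 74.2% (73.0% to 75.5%) in the syngeneic ones. The groups overlapped. Psmb7 also had more CPM in the allogeneic libraries (119.1 and 156 CPM, against 97.9 and 96.6 CPM in the syngeneic ones). By class, both allogeneic shares lay above both syngeneic shares in 7 of 7 classes for Psmb8, in 7 of 7 for Psmb9 and in 2 of 7 for Psmb10. The widest gaps were in Paneth-like cells, where Psmb8 took 75.9% and 73.3% in the allogeneic libraries, against 55.8% and 48% in the syngeneic ones, and in tuft-like cells, where Psmb9 took 51.8% and 64%, against 26.9% and 26.4%. In enterocyte-like cells the Psmb8 share was 77% and 76.8% in the allogeneic libraries, against 75.7% and 74.9% in the syngeneic ones. The syngeneic enterocyte-like shares thus lay within the range of the allogeneic shares of the other classes (67.7% to 77.7%), and the intervals of all 4 enterocyte-like sums overlapped.

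**Figure D4:**
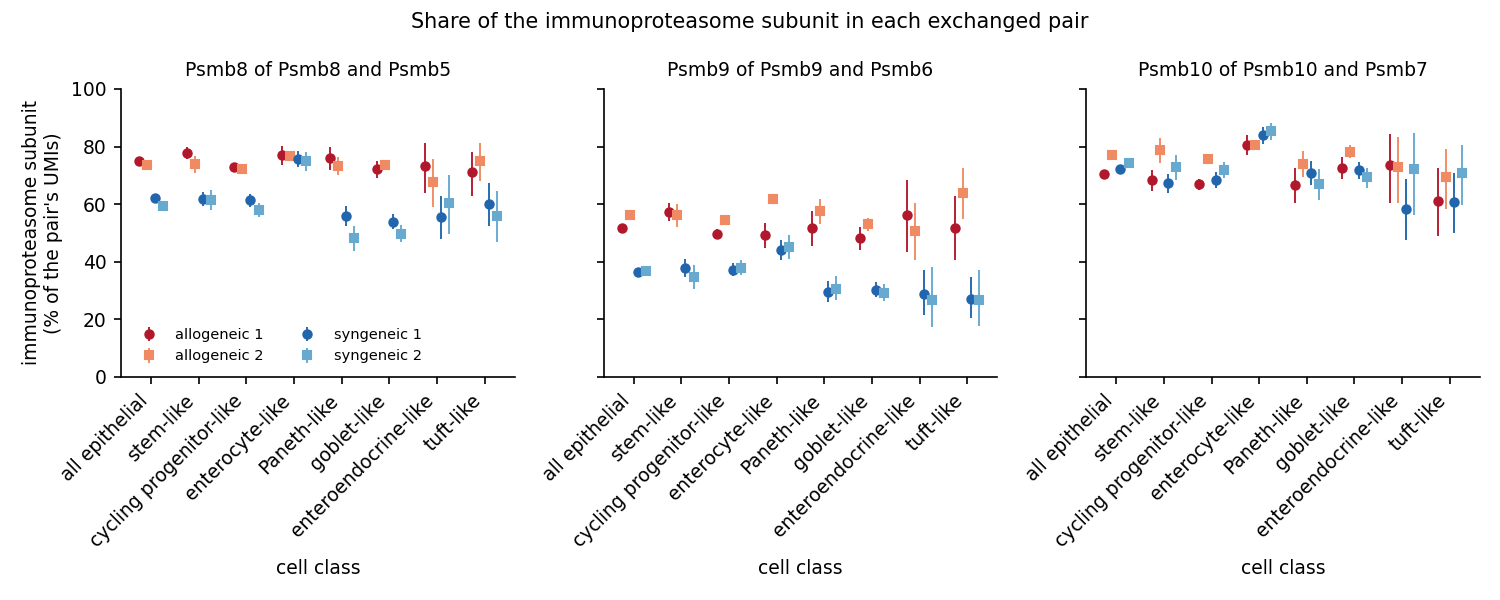
Share of the immunoproteasome subunit among the UMIs of each exchanged pair (percent, y axis) in all epithelial cells and by cell class, 1 point per library with exact 95% binomial bars, allogeneic libraries to the left of syngeneic ones in each class. Psmb8 and Psmb9 lie higher in both allogeneic libraries in each of the 7 classes, with the smallest gap for Psmb8 in enterocyte-like cells, while the Psmb10 groups overlap in most classes.

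The UMIs of the 10 genes were also counted per cell, which includes any free RNA caught with the cell; its part was not tested, since no class lacks these genes. Each epithelial cell was thinned to 2000 UMIs, which left out 178 and 636 shallower cells of the allogeneic and 196 and 242 of the syngeneic libraries. The median cell then held 6 and 7 UMIs of the 10 genes together in the allogeneic libraries, against 4 and 4 in the syngeneic ones. Cells with at least 5 of the 10 genes detected made up 33.6% and 43% in the allogeneic libraries, against 13.8% and 12.4% in the syngeneic ones. Cells with none of the 10 made up 2.72% and 0.43% in the allogeneic libraries, against 6.64% and 8.36% in the syngeneic ones. Over all classes together, whose mix differed between the libraries, the 10th and 90th percentiles were 2 and 10, and 4 and 12, UMIs in the allogeneic libraries, against 1 and 8, and 1 and 7, in the syngeneic ones.

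Paneth-like cells held the fewest of these UMIs in every library. Their medians were 2 and 5 UMIs in the allogeneic libraries, against 1 and 1 in the syngeneic ones, and 23% and 5.84% of them in the allogeneic and 31.1% and 45.9% in the syngeneic libraries had none. Stem-like cells had medians of 7 and 10 UMIs in the allogeneic libraries, against 5 and 4 in the syngeneic ones. Summed over the 10 genes, allogeneic CPM were 2.3 times the syngeneic CPM in Paneth-like cells, 2.21 times in goblet-like, 2.02 times in stem-like, 1.78 times in enteroendocrine-like, 1.77 times in tuft-like, 1.76 times in cycling progenitor-like and 1.47 times in enterocyte-like cells. The order of these ratios was not tested. Gene by gene, the thinned share of cells with a Tap1 UMI was 36.4% and 28.5% in the allogeneic libraries, against 12.7% and 11.8% in the syngeneic ones (unthinned 66.8% and 50.4%, against 27.9% and 24.4%). T or NK cells could not serve as a class without these genes: 29.2% and 16.4% of 72 and 55 such cells in the allogeneic libraries had a Tap1 UMI, and their Psmb8 level was 703 and 811.9 CPM.

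**Figure D5:**
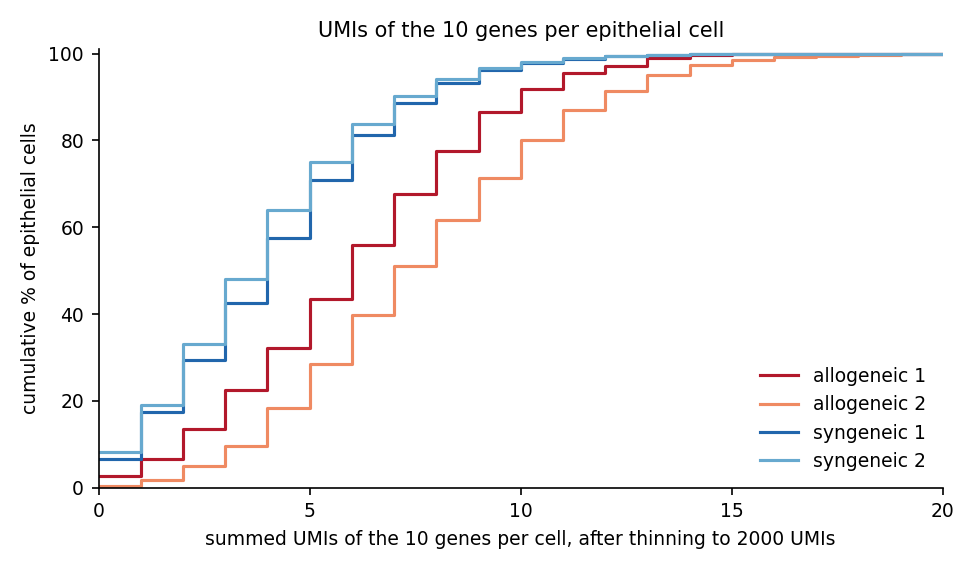
Cumulative percent of epithelial cells (y axis) by summed UMIs of the 10 genes after thinning each cell to 2000 UMIs (x axis), 1 line per library. Both allogeneic lines run to the right of both syngeneic lines over the whole range, with medians of 6 and 7 against 4 and 4 UMIs, and the syngeneic lines nearly coincide.

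The rest of the pathway was read from lists of related genes. The constitutive catalytic subunits Psmb5, Psmb6 and Psmb7 had a median log2 fold change of 0.27 and none was called in any class; the 2 largest were 0.50 for Psmb7 and 0.27 for Psmb5. Of the 11 other 20S subunits none was called in any class either, with a median of 0.52 in the epithelium, led by Psmb3 (0.62) and Psma1 (0.61). For the 17 subunits of the 19S cap, which feeds tagged proteins into the core, the median was 0.34 with none called, led by Psmd4 (0.56) and Psmd12 (0.47). In the epithelium 0 genes of these 3 lists were called by DESeq2, and 0 had an unadjusted p below 0.05 in edgeR. In the classes DESeq2 called 0 as well, and the single class with an unadjusted p below 0.05 was the enterocyte-like one, with 1 constitutive subunit and 6 cap subunits. Beside these medians stand 1.07 for the 10 genes and 0.03 for all genes tested.

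On the TMM scale the 20S subunits shared the excess of allogeneic 2 but not the excess of allogeneic 1. The TMM factors of the epithelial sums, 1.13 in allogeneic 1 and 0.857 in allogeneic 2, lower the first and raise the second. Ratios on CPM of the library total were not taken for these lists. The 11 other 20S subunits had a median ratio to the syngeneic mean of 1.06 in allogeneic 1 and 1.76 in allogeneic 2, and the 17 cap subunits had 1.01 and 1.5. The same medians were 1.62 and 2.26 for the 10 genes, and 1.01 and 0.99 over 11185 genes. All 11 and all 17 subunits were higher in allogeneic 2 than in allogeneic 1. Psmb3, a structural ring subunit, had 326.2 and 757.8 CPM in the allogeneic libraries, against 350.3 and 353.9 CPM in the syngeneic ones. Pomp, the assembly chaperone of the core, had 310.2 and 643.8 CPM in the allogeneic libraries, against 317 and 330.3 CPM in the syngeneic ones (log2 fold change 0.56, edgeR adjusted p = 0.764). It led its list of 8 activators, inhibitors and assembly factors, of which none was called by edgeR or DESeq2 (median 0.12, 0 at an unadjusted p below 0.05), followed by Psmg4, another assembly chaperone (0.22).

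Partners of the loading complex and other peptidases gave few calls. In the epithelium 0 of 9 were called by edgeR or DESeq2 (median -0.12, 1 at an unadjusted p below 0.05), and the 2 largest were Lap3, a cytosolic leucine aminopeptidase (1.06, SE 0.50), and Tapbpl, the tapasin relative TAPBPR (0.64, SE 0.23). Blmh, a cytosolic cysteine peptidase, rose in enterocyte-like cells, where it had 109.6 and 129.4 CPM in the allogeneic libraries, against 53.8 and 38.8 CPM in the syngeneic ones (1.37, SE 0.30, edgeR adjusted p = 0.0482). It was the single call of this list in the 7 classes. Among the 8 partners and the relative of Nlrc5, Ciita, the class II transactivator, rose in cycling progenitor-like cells with 54.3 and 48.5 CPM in the allogeneic libraries, against 24.7 and 25.5 CPM in the syngeneic ones (1.03, SE 0.24, edgeR adjusted p = 0.0224). In the epithelium none of the 8 was called by edgeR or DESeq2 (median 0.03, 3 at an unadjusted p below 0.05), and the 2 largest log2 fold changes were 1.07 for Rfx5 and 0.76 for Ciita.

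The class I molecules that receive the peptides had larger fold changes than the machinery that supplies them. In the epithelium 2 of 12 tested class I genes were called higher, H2-Q6 (4.24) and H2-Q7 (3.24), near-identical genes whose reads may be split between them, and the median was 1.49. The numbers called higher were 8 of 10 in stem-like, 8 of 11 in cycling progenitor-like, 2 of 10 in enterocyte-like, 8 of 10 in Paneth-like, 4 of 11 in goblet-like, 6 of 8 in enteroendocrine-like and 4 of 9 in tuft-like cells, and none was called lower. B2m, the light chain of class I, had 1689 and 2273 CPM in Paneth-like cells of the allogeneic libraries, against 273.3 and 310 CPM in those of the syngeneic ones (2.76, SE 0.31, edgeR adjusted p = 0.00155). The difference between the lists was not tested. Of 13 genes of interferon gamma signalling 0 were called by edgeR in the epithelium (median 0.49), with 6 at an unadjusted p below 0.05 and 3 called by DESeq2. Socs1, an inhibitor of the receptor's kinases, had 30.1 and 121.3 CPM in the allogeneic libraries, against 17.4 and 20.3 CPM in the syngeneic ones (2.01, SE 0.63, edgeR adjusted p = 0.356), and Socs3 had a log2 fold change of -1.34 (SE 0.23, edgeR adjusted p = 0.143). Of the 13, 2 were called higher and 1 lower in cycling progenitor-like cells, and 3 higher in Paneth-like cells. Irf1, a transcription factor of that pathway, rose in cycling progenitor-like (1.24) and Paneth-like cells (1.65), Socs1 rose in Paneth-like cells (2.51), and Socs3 fell in cycling progenitor-like cells (-1.81, SE 0.32, edgeR adjusted p = 0.00294).

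Over the 28 sums of 7 classes by 4 libraries, the genes outside the 10 whose log2 CPM followed their mean z-score most closely were Igtp (r = 0.933), Irf1 (0.93), Ubd (0.93), B2m (0.928), Cd74 (0.92), Ifi47 (0.916), H2-D1 (0.913) and Lgals9 (0.907). Igtp and Ifi47 are interferon-inducible GTPases, Ubd is the ubiquitin-like modifier FAT10, which targets proteins to the proteasome, and Cd74 is the invariant chain of class II. These are descriptions, since sums of a library share its cells, depth and group, 8426 genes were ranked, and no p is given. Among the 10 genes themselves, r with the mean they form was 0.928 for Tap1, 0.926 for Psme1, 0.922 for Psmb9, 0.908 for Psmb8, 0.865 for Psmb10 and Psme2, 0.838 for Tap2 and 0.813 for Tapbp, but 0.48 for Nlrc5, which had few counts, and 0.197 for Erap1.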

How the data were processed

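Each library was deposited by the authors as a gene-by-cell matrix of UMI counts, made from 10x Chromium 3′ reads with Cell Ranger on mm10, per the submitters' processing notes; the notes give version 2.1.1 and the matrix headers, per the file headers, software version 3.1.0. Whether counts used introns or strand is not given in the sources used here. From these deposited counts, barcodes were retained at no fewer than 500 genes and 1000 UMIs and with mitochondrial counts no higher than 20%, and 89 doublets (0.724% of the 12285 that passed) called by scrublet were removed. Cells were gated as epithelial by at least 2 epithelial markers and at most 1 immune or stromal marker, and put in a class when at least 3 of its markers were detected with a mean z-score of 0.5 and a margin of 0.25 over the next class. Of the epithelial cells, 14.13% lay within 0.1 of such a threshold. Doublets of cells of the same class cannot be seen by such a caller.

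Counts were summed per library and class (at least 20 cells each) and tested with edgeR 4.0.16 in R 4.3.3 (filterByExpr, TMM, robust quasi-likelihood F test, Benjamini-Hochberg adjustment over all genes tested, threshold 0.05), and SE is the fold change over the square root of F. DESeq2 1.42.0 was an alternative. The pools are the replicates, so p-values measure the spread between 2 pools per group. The test of a class against the others fitted all 28 sums with library as a block. These steps were tested on simulated data, in which the spread of the fits by class was set below that of the real sums. For the test between classes the simulated spread was a fixed value, and the sums of a library varied independently. The simulation therefore does not show how the tests perform at the spread of these pools. Alternatives were another scaling, no filter on low counts, a mitochondrial limit of 10%, no cells with T or NK markers, classes from Leiden clusters, an equal mix of classes, and each library left out. The 10% limit in the test between classes was added after the data were seen. The members, the other lists and the classes were chosen with earlier results of these data known. The 10 genes are named throughout. Of the other lists, at most the 4 largest called per fit are named, or the 2 largest where none was called, and 8 genes by likeness. One result that this rule names is not reported here. H2-T10, a class I gene on the list, is not in the feature lists used here. Positions are from GENCODE M21 and promoter windows from RefSeq (GRCm38.p6), which gave no window for Tap2 and Nlrc5. Python 3.11.15 with numpy 2.4.6, pandas 2.3.3, scipy 1.17.1 and scanpy 1.11.5 made the sums, and matplotlib 3.10.9 the figures.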

Additional observations from a re-analysis of the deposited data

Results flagged for a closer look

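The allogeneic effect in enterocyte-like cells, minus the mean effect of the other 6 classes, was -1.046 for Tap1 and -0.5944 for Psmb8 on the log2 scale, and both differences passed the edgeR test of the difference itself with library as a block (adjusted p = 0.00012 and 0.0109). Both were negative under each alternative run, between -1.20 and -0.91 for Tap1 and between -0.72 and -0.43 for Psmb8. The sums of a class come from the same 4 libraries, and enterocyte-like cells numbered 338 and 1719 in the allogeneic and 450 and 462 in the syngeneic libraries.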

How the results depend on the processing

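The number of the 10 genes called was 0 in the epithelium, but 3 with DESeq2, 3 without the filter on low counts and 1 with an equal mix of classes. In stem-like cells 1 was called, against 2 with DESeq2, 4 without the filter and 3 on classes from clusters. In cycling progenitor-like cells 2 were called, against 1 with RLE scaling, 5 without the filter and 3 with the mitochondrial limit of 10%; DESeq2 called 2, Psmb8 (adjusted p = 0.0208) in place of Tapbp. In enterocyte-like cells 0 were called, against 1 with the mitochondrial limit of 10% and 1 on clusters. In Paneth-like cells 1 was called, against 5 with DESeq2, 5 without the filter, 2 with the 10% limit, 2 without cells with T or NK markers and 4 on clusters. In goblet-like cells 1 was called, against 4 with DESeq2, 6 without the filter and 2 on clusters. In tuft-like cells 0 were called, against 2 without the filter, 2 with the 10% limit and 2 on clusters. The test between classes called 2, in enterocyte-like cells, where 4.77% of all genes were called. It called 3 with the 10% limit, without a share over all genes to set beside it. Of all genes tested in the epithelium, 0.141% were called, 2.8% with DESeq2, 3.25% without the filter and 0.416% with an equal mix; over the fits, 0.141% to 3.14% were called, 0.404% to 3.26% with DESeq2, 0.363% to 4.23% without the filter, at most 6.16% with the 10% limit and 0.587% to 6.96% on clusters.

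With 1 library left out, the number called in the test between classes changed. In the epithelium and in each class the counts rose with an allogeneic library left out, as did the share of all genes called. With a syngeneic library left out, the counts were 0. In the epithelium they were 9 and 7 without allogeneic 1 and 2, where 44.7% and 22.1% of all genes were called, and 0 and 0 without syngeneic 1 and 2, where 0.814% and 0.902% were: the fit takes its spread from the pair that remains whole, and the lone library is assumed to vary like that pair. Tap1 kept its calls in stem-, cycling progenitor-, Paneth- and goblet-like cells under every alternative run with all 4 libraries.

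Signs turned where the log2 fold change of the main fit was at most 0.57. That value was of Psme2 in tuft-like cells, where the median of the genes tested was 0.61. Erap1 had -0.37 in enterocyte-like cells with the 10% limit, and in goblet-like cells -0.011 without the filter and -0.027 without cells with T or NK markers. With 1 library left out, Erap1 ranged from -0.10 to 0.21 in cycling progenitor-like, -0.17 to 0.68 in enterocyte-like, -0.13 to 0.19 in goblet-like and -0.54 to 0.63 in tuft-like cells, Psme2 from -0.36 to 0.78 in enterocyte-like and -0.068 to 1.05 in tuft-like cells, and Psmb10 from -0.017 to 0.85 in tuft-like cells. On the TMM scale allogeneic 1 held 0.77 and 0.96 times the syngeneic mean of Psme2 in enterocyte- and tuft-like cells. For Psmb10 in tuft-like cells it held 0.97 times, so these fold changes above 0 came from allogeneic 2. The cause of the turns was not tested. Of 438 values of single genes under settings with all libraries, 385 kept their side of the threshold and direction, 48 were newly called, 2 lost a call and 3 turned sign. The number of exchanged pairs with higher shares in both allogeneic libraries was 2, and 2 to 3 with 1 library left out.

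No paired analysis was possible because the labels give no replicate numbers shared between the groups. Clusters were not run for cycling progenitor-like cells (7 and 5 syngeneic cells), nor the 10% limit for enteroendocrine-like cells (17 cells in allogeneic 1). With 2 pools per group, exact tests cannot go below 0.333, and Nlrc5 and Tap2 had too few counts in the rare classes.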
